A study of Mus musculus with 6 samples.

Results

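Apoptosis regulators and the tumour necrosis factor (TNF) receptor family were followed after stroke in the wall of the lateral ventricle, where neural stem cells persist (the subventricular zone, SVZ). The set has 38 named genes: the BCL2 family, the apoptosome, initiator and executioner caspases, inhibitors of apoptosis (IAPs), TNF with its receptors and adaptors, the necroptosis genes, and p53 with MDM2. A gene counted as measured where a probe set carried its symbol and no other, and the probe set with the highest mean over the arrays stood for it. On that rule 35 of the 38 were measured, among 18194 genes on the array, and Bax, Ripk1 and Trp53 were not matched, so their expression is not analysed here.

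The data come from 3 arrays of MCAO mice and 3 arrays of sham mice. The MCAO mice were adult C57BL/6 males whose middle cerebral artery had been occluded, a stroke model, with the SVZ of the lesioned side taken 48 h later. The sham mice were adult males of the same strain, killed 48 h after sham surgery, and the labels name no transgene or drug in either group. Whether each array stands for its own mouse is not in the labels, and the spread behind the p-values may therefore be partly technical. The values are log2 expression values, and the number of arrays limits their precision.

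Cells can die by apoptosis along an intrinsic route, in which BH3-only proteins release BAX and BAK from BCL2, BCL-XL and MCL1, cytochrome c leaves the mitochondria, and APAF1 and caspase-9 start the caspase cascade. The extrinsic route starts at death receptors such as FAS and TNFR1, whose adaptors FADD and TRADD recruit caspase-8, and cleavage of BID by caspase-8 joins both routes. TNFR1 also signals through TRAF2, RIPK1 and the IAPs to NF-kappaB and survival, and through RIPK3 and MLKL to necroptosis, a lytic death. After focal ischemia these pathways are studied mainly in neurons, while several of the receptors are also expressed by glia and myeloid cells.

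Markers of SVZ cells and of other brain cells were read in the same samples. Dcx and Dlx1, of migrating neuroblasts and their precursors, averaged 9.13 ± 0.16 and 8.75 ± 0.34 log2 in MCAO and 9.01 ± 0.12 and 8.53 ± 0.22 in sham (SD, 3 arrays each). The neuron marker Drd1 averaged 11.27 in MCAO and 11.61 in sham, and the oligodendrocyte marker Mbp 13.60 and 13.71. The share of SVZ cells in the tissue was not tested. The MCAO and sham arrays numbered 1 stood apart from the other 4 along the leading principal component, which held 40.8% of the variance, with scores of 0.42 and 0.66 against −0.47 to −0.03. Samples with the same number deviated from their group means together, so the number was treated as a pairing, and results are given both without it and with the number as a block. The labels give a sample number and state no pairing, so the block was chosen from the same values that it then tests.

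No member passed the threshold, an adjusted p of 0.05 over all 18194 genes in limma's moderated test, without the block. With the sample number as a block 6 members rose and 0 fell: the receptors Tnfrsf12a, Tnfrsf1a and Fas, the caspase Casp8, the protective gene Mcl1 and the BH3-only gene Bid. Over all genes 1.12% rose and 0.0165% fell without the block, and 4.82% rose and 1.3% fell with it. At an unadjusted p under 0.05 without the block, 8 members were higher and 0 lower, against 6.32% and 2.46% of all genes. All 3 MCAO values lay above all 3 sham values for 10 members and below them for 1, against 8.44% and 5.37% of all genes. Within same-numbered samples 18 members were higher in MCAO in all 3 pairs and 3 were lower in all 3, against 20% and 19.9% of all genes. The median difference of the 35 members was 0.12 log2, and that of all genes was −0.0064.

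**Figure D1:**
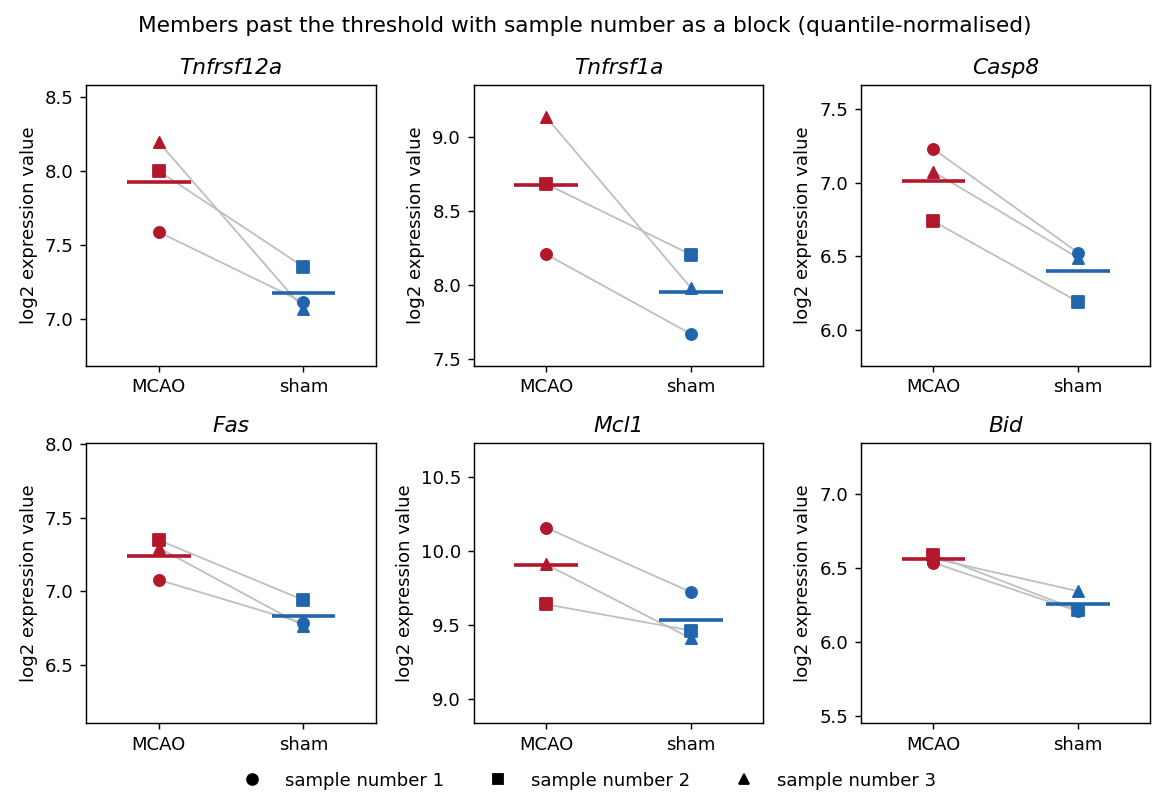
Log2 expression values of the 6 members that passed with the sample number as a block, per array, with MCAO in red on the left and sham in blue on the right; bars are means of 3 arrays, grey lines join same-numbered samples, and every panel spans the same range of log2 units. The grey lines fall towards sham in every pair, and in Mcl1 the groups overlap.

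Of the ligand gene Tnf and 6 measured genes of the TNF receptor family, 3 receptor genes rose with the block and the other 4 genes did not pass. Tnfrsf12a encodes FN14, the receptor of the cytokine TWEAK, which lacks a death domain. It read 7.589, 8.002 and 8.197 on MCAO arrays 1 to 3 and 7.113, 7.354 and 7.071 on sham arrays 1 to 3. All 3 MCAO values were above all 3 sham values. The difference was 0.75 ± 0.16 log2 (SE, n = 3 per group), or 1.68-fold, with an adjusted p of 0.0939 by limma without the block and 0.00235 with it. Within the numbered pairs it was 0.48, 0.65 and 1.13, the most in pair 3. Tnfrsf12a was also past the threshold in values as deposited (0.78 log2, adjusted p = 0.0429 by limma), without MCAO 1 (0.92, adjusted p = 0.0133) and without both arrays numbered 1 (0.89, adjusted p = 0.0120). It did not pass without MCAO 2 (0.273), MCAO 3 (0.261), sham 1 (0.229), sham 2 (0.144) or sham 3 (0.399). Its other probe set, which may also bind related transcripts, read 1.04 log2 higher in MCAO (adjusted p = 0.0668 over 34958 probe sets by limma, and 0.00462 with the block).

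Tnfrsf1a encodes TNFR1, the death-domain receptor of TNF. It read 8.21, 8.69 and 9.14 on MCAO arrays 1 to 3, against 7.67, 8.21 and 7.98 on sham arrays 1 to 3. The groups touched: MCAO 1 at 8.210 lay just above sham 2 at 8.207. The difference was 0.72 ± 0.23 log2 (SE, n = 3 per group), or 1.65-fold, with an adjusted p of 0.330 by limma without the block, 0.00454 with it and 0.0462 without both arrays numbered 1. The pairs gave 0.54, 0.48 and 1.16, again the most in pair 3. Fas, the receptor of FAS ligand, read 7.08, 7.35 and 7.30 in MCAO, against 6.79, 6.94 and 6.77 in sham. Every MCAO value of Fas was above every sham value, with a difference of 0.41 ± 0.10 log2 (SE, 3 arrays each; 1.33-fold; adjusted p = 0.142 by limma, and 0.00808 with the block).

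These 3 receptor genes were the members of the TNF receptor family that passed with the block, and the stretch upstream of each is shown for the sequence motifs it holds. RefSeq's promoter table on GRCm38.p6 held 34 of the 38 members, with 46 starts in all, including those of Bax, Ripk1 and Trp53, whose expression was not measured. The 250 bases before the start lie at chr17:23677450-23677699 on the minus strand for Tnfrsf12a, at chr6:125349473-125349722 on the plus strand for Tnfrsf1a and at chr19:34290409-34290658 on the plus strand for Fas. The genes themselves lie at chr17:23675445-23677449, chr6:125349723-125362483 and chr19:34290647-34327775, and the start used for Fas is inside its annotated span. Each is written 5′ to 3′ on the gene's strand, and capitals mark matches on either strand to the AP-1 motif TGANTCA, the STAT motif TTCNNNGAA or the SP1 motif GGGCGG.
Tnfrsf12a: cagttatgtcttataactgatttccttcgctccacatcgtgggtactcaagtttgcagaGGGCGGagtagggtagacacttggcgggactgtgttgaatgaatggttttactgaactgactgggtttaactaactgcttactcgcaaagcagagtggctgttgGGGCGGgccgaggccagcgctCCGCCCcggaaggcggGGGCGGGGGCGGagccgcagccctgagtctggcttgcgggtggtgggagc
Tnfrsf1a: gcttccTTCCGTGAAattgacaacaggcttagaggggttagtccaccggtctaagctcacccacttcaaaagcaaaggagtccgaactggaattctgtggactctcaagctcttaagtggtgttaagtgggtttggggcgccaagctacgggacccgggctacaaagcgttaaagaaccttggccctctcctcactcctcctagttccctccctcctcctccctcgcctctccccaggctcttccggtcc
Fas: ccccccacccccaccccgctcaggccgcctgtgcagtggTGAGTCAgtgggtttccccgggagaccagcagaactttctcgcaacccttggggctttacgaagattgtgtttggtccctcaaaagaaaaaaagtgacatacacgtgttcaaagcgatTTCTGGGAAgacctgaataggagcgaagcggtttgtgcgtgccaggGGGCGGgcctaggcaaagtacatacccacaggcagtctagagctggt

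The window of Tnfrsf12a held 5 matches to the SP1 motif, 1 pair of them adjoining, and none to the other motifs. That of Tnfrsf1a held a STAT match beginning 244 bases before the start, and that of Fas an AP-1 match at 211, a STAT match at 93 and an SP1 match at 47 bases. Among all 32851 promoter windows of the same length, 6.75% held the AP-1 motif, 7.02% the STAT motif and 32.7% the SP1 motif. Among the members' 46 windows, 1 held the AP-1 motif, 4 the STAT motif and 28 the SP1 motif. A match is a description of these letters and not a binding site.

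The other receptors and the ligand did not pass. Tnf, the founding cytokine of the family, read 6.52, 6.67 and 6.86 on MCAO arrays 1 to 3, against 6.70, 6.74 and 6.70 on sham arrays 1 to 3, so the sham values lay inside the range of the MCAO values. Its difference was −0.03 log2, with a 95% interval of −0.26 to 0.19. Tnfrsf1b encodes TNFR2, the second TNF receptor, and averaged 6.96 ± 0.13 log2 over the MCAO arrays and 7.01 ± 0.24 over the sham arrays (SD, n = 3 each); its other probe set read 0.20 higher in MCAO, and neither passed. Tnfrsf10b, the mouse TRAIL receptor, and Tnfrsf21, which encodes the death receptor DR6, differed by −0.04 and −0.0054 log2. Their intervals ran from −0.20 to 0.11 and from −0.31 to 0.30. Tnfrsf10b was dim, at 5.89 in MCAO and 5.93 in sham.

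Downstream of the death receptors, Casp8 rose with the block. Casp8, the initiator caspase of the extrinsic route, read 7.23, 6.74 and 7.07 on MCAO arrays 1 to 3, against 6.52, 6.19 and 6.49 on sham arrays 1 to 3. The groups did not overlap, and in both of them sample 2 was lowest. The difference was 0.61 ± 0.14 log2 (SE, n = 3 per group), or 1.53-fold. Its adjusted p by limma was 0.142 without the block and 0.000523 with it, and the pairs lay close together at 0.70, 0.55 and 0.58. Without the block, leaving out 1 array at a time gave adjusted p-values of 0.0688 to 0.406 for Casp8 by limma. The gene lies at chr1:58795233-58847503 (GRCm38.p6).

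None of the 4 adaptor genes passed with or without the block, and 0 had an unadjusted p under 0.05 without it by limma. Traf2, the adaptor that links TNF receptors to NF-kappaB, differed by 0.21 ± 0.10 log2 (SE, n = 3 per group), with pair differences of 0.19, 0.0003 and 0.42. Cflar encodes FLIP, which restrains caspase-8 at the receptor, and differed by 0.20 ± 0.12, most in pair 1 at 0.36. Fadd, the adaptor of FAS, and Tradd, that of TNFR1, differed by 0.12 and 0.0027, and the pairs of Tradd differed in sign. Of the other caspases, the executioner Casp6 read 7.23, 7.25 and 7.05 on MCAO arrays against 6.83, 7.08 and 6.94 on sham arrays, and MCAO 3 lay below sham 2. Its difference was 0.22 ± 0.09 log2 (SE, 3 arrays each; adjusted p = 0.554 by limma, and 0.138 with the block). Casp2, a caspase activated under stress and DNA damage, differed by 0.12 and did not overlap between groups, while Casp9, the initiator of the intrinsic route, differed by −0.08.

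Among the 3 protective BCL2 genes, Mcl1 rose with the block, and Bcl2 and Bcl2l1 did not pass. Mcl1, whose protein is short-lived and sequesters BIM, NOXA and BAK, read 10.16, 9.64 and 9.91 on MCAO arrays 1 to 3, against 9.72, 9.46 and 9.41 on sham arrays 1 to 3. MCAO 2 lay below sham 1, so the groups overlapped, while each pair was higher in MCAO, by 0.44, 0.18 and 0.50. The difference was 0.37 ± 0.14 log2 (SE, n = 3 per group; 1.29-fold; adjusted p = 0.478 by limma, and 0.0218 with the block), and it was 0.24 without MCAO 1. The probe set used is the brightest of 6 and may bind related transcripts. All 6 read higher in MCAO, by 0.28 to 0.54 log2, and tested alone over 34958 probe sets by limma 1 of them passed without the block and 5 with it. That 1 read 7.52, 7.68 and 7.58 in MCAO against 7.06, 7.04 and 7.06 in sham, with no overlap, a difference of 0.54 and an adjusted p of 0.0240 by limma. The gene lies at chr3:95656944-95663179.

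**Figure D2:**
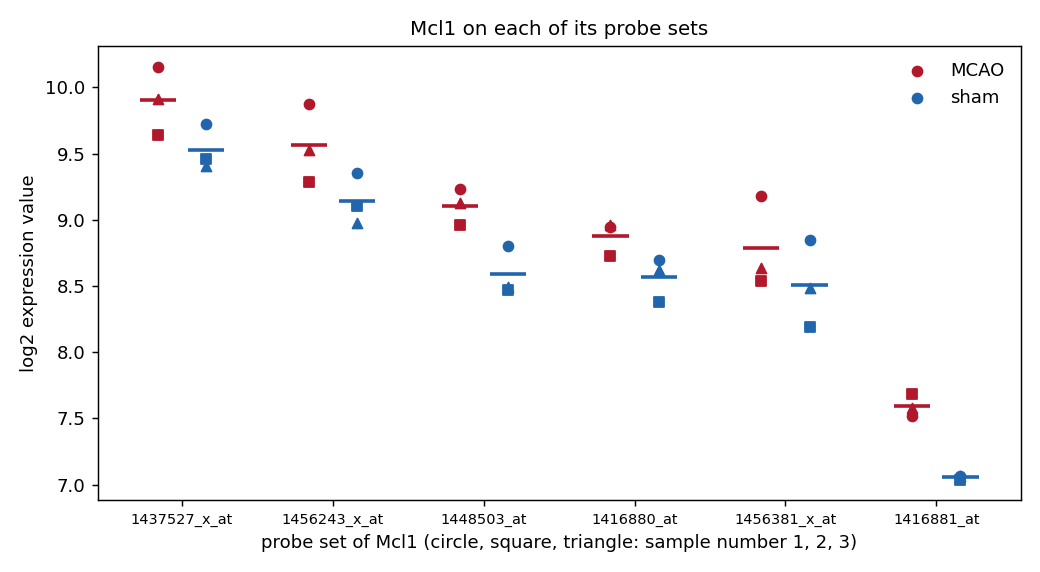
Log2 expression values of Mcl1 on each of its 6 probe sets, ordered by mean, with MCAO in red left of sham in blue; bars are means of 3 arrays. MCAO is higher on all 6, by 0.28 to 0.54 log2, and sample 1 (circles) is the highest sham value on 5 of them.

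Bcl2, the founding protective member, read 8.35, 7.71 and 7.68 in MCAO, against 8.18, 7.90 and 7.60 in sham, and the arrays numbered 1 were highest in both groups. Its difference was 0.02 log2, with a 95% interval of −0.47 to 0.50. Bcl2l1, which encodes BCL-XL, averaged 8.85 ± 0.24 log2 over the MCAO arrays and 8.88 ± 0.16 over the sham arrays (SD, n = 3 each), a difference of −0.03 with an interval of −0.35 to 0.28. Of the effectors that permeabilise the mitochondrial membrane, Bak1 was measured and differed by 0.14 ± 0.09 log2 (SE, 3 arrays each, adjusted p = 0.815 by limma). Its other probe set, which may bind related transcripts, read the opposite sign, at −0.08 log2. Bak1 averaged 6.22 in sham, at percentile 22.77 of all genes.

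Of 7 BH3-only genes, which report stress signals to the BCL2 family, Bid rose with the block and 6 did not pass. Bid read 6.53, 6.59 and 6.56 on MCAO arrays 1 to 3, against 6.21, 6.21 and 6.34 on sham arrays 1 to 3, with all MCAO values above all sham values. The difference was 0.31 ± 0.07 log2 (SE, n = 3 per group), or 1.24-fold, with an adjusted p of 0.144 by limma and 0.0265 with the block. The other 2 probe sets of Bid did not read this difference, at 0.03 and −0.15 log2, and Bid did not pass with the block once its probe sets were averaged (adjusted p = 0.662 by limma) or in values as deposited (0.0602). The gene lies at chr6:120893119-120917062. Bcl2l11, which encodes BIM, read 8.41, 7.22 and 7.48 in MCAO, against 7.77, 7.18 and 7.22 in sham, and its difference of 0.32 ± 0.30 was largest in pair 1, at 0.64. Without MCAO 1 it turned to −0.04, and with its probe sets averaged and the block it was 0.08, and none of these passed.

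Bbc3 and Pmaip1 encode PUMA and NOXA, which p53 induces after DNA damage, and they differed by 0.01 and 0.03 log2, with 95% intervals of −0.19 to 0.20 and −0.27 to 0.33. Pmaip1 was dim, at 5.67 in MCAO and 5.64 in sham, where the median gene read 7.13, and whether it was detected was not tested. Bad, which growth factor signalling inactivates, and Bik differed by 0.03 and 0.02. Bmf, whose protein is tied to the cytoskeleton and released on loss of attachment, was the 1 member with all MCAO values below all sham values, at 7.10, 7.10 and 7.02 against 7.29, 7.11 and 7.23. The groups nearly touched, with MCAO 2 at 7.105 and sham 2 at 7.112. The difference of Bmf, −0.14 ± 0.08 log2 (SE, n = 3 per group), did not pass by limma without the block (adjusted p = 0.756) or with it (0.355). Its brightest probe set may bind related transcripts. So may another, at −0.02 log2, while the remaining probe set read 0.04 higher in MCAO.

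The apoptosome and mitochondrial genes did not pass with or without the block. Apaf1, the scaffold that activates caspase-9, read 7.44, 7.40 and 7.41 in MCAO, against 7.30, 7.22 and 7.31 in sham. The groups did not overlap, at a difference of 0.14 ± 0.07 log2 (SE, 3 arrays each; adjusted p = 0.668 by limma, and 0.301 with the block). Diablo encodes SMAC, which counters the IAPs, and differed by 0.12, with all 3 pairs higher in MCAO. Cycs, the gene of cytochrome c, which also carries electrons in respiration, differed by −0.12. Pair 1 gave −0.35, pair 2 gave 0.08 and pair 3 gave −0.09.

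The 3 IAP genes among the members differed in direction, and none passed. Birc5, of the same family but not a member, is given with the execution phase genes. Xiap, which inhibits caspases directly, read 10.13, 9.77 and 9.77 in MCAO, against 10.23, 9.80 and 10.06 in sham, lower in MCAO in all 3 pairs by 0.10, 0.03 and 0.29. Birc2 and Birc3 encode cIAP1 and cIAP2, ubiquitin ligases of the TNF receptor complex. Birc2 differed by −0.13 ± 0.11 log2 and Birc3 by 0.16 ± 0.08 (SE, n = 3 per group), and Birc3 did not overlap between groups. Neither passed with the block (adjusted p = 0.439 and 0.219 by limma).

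Of the necroptosis genes, Ripk3 and Mlkl were measured. Ripk3, the kinase that phosphorylates MLKL, read 6.242, 6.197 and 6.258 in MCAO, against 6.101, 6.056 and 6.009 in sham. Mlkl, which ruptures the plasma membrane, read 6.08, 6.04 and 6.14 in MCAO, against 5.96, 5.91 and 5.92 in sham. Both had all MCAO values above all sham values, with differences of 0.18 ± 0.07 and 0.16 ± 0.07 log2 (SE, n = 3 per group), and neither passed by limma without the block (adjusted p = 0.483 and 0.571) or with it (0.185 and 0.231). Mdm2, the ubiquitin ligase and target of p53, read 9.11, 8.88 and 8.92 in MCAO, against 9.12, 8.91 and 9.02 in sham, a difference of −0.04 with an interval of −0.26 to 0.17.

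**Figure D3:**
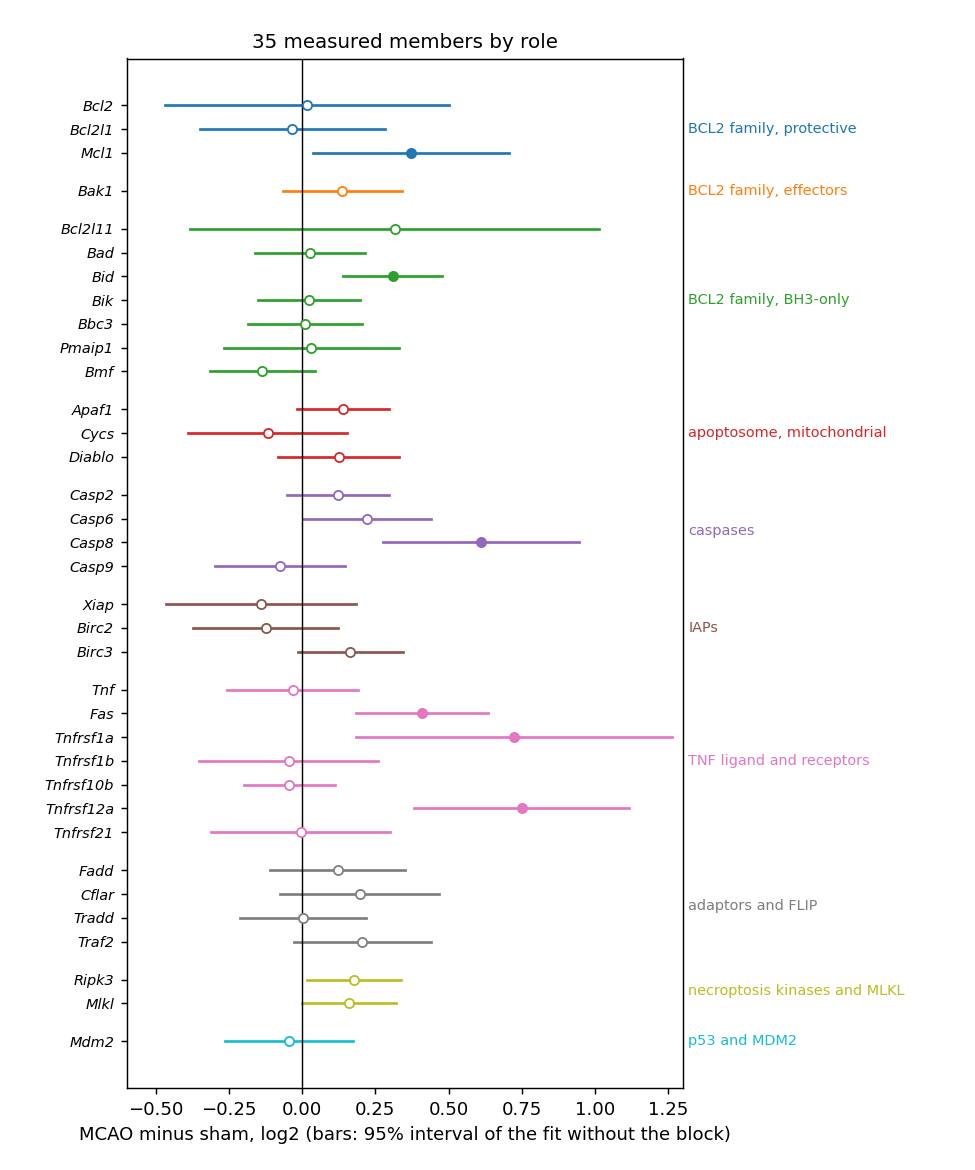
Difference between MCAO and sham of the 35 measured members, grouped by role; points are means of 3 MCAO minus 3 sham arrays on the log2 scale, bars are 95% intervals of the fit without the block, and filled points passed with the block. The filled points run from 0.31 for Bid to 0.75 for Tnfrsf12a, and the lowest point is Xiap at −0.14.

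**Figure D4:**
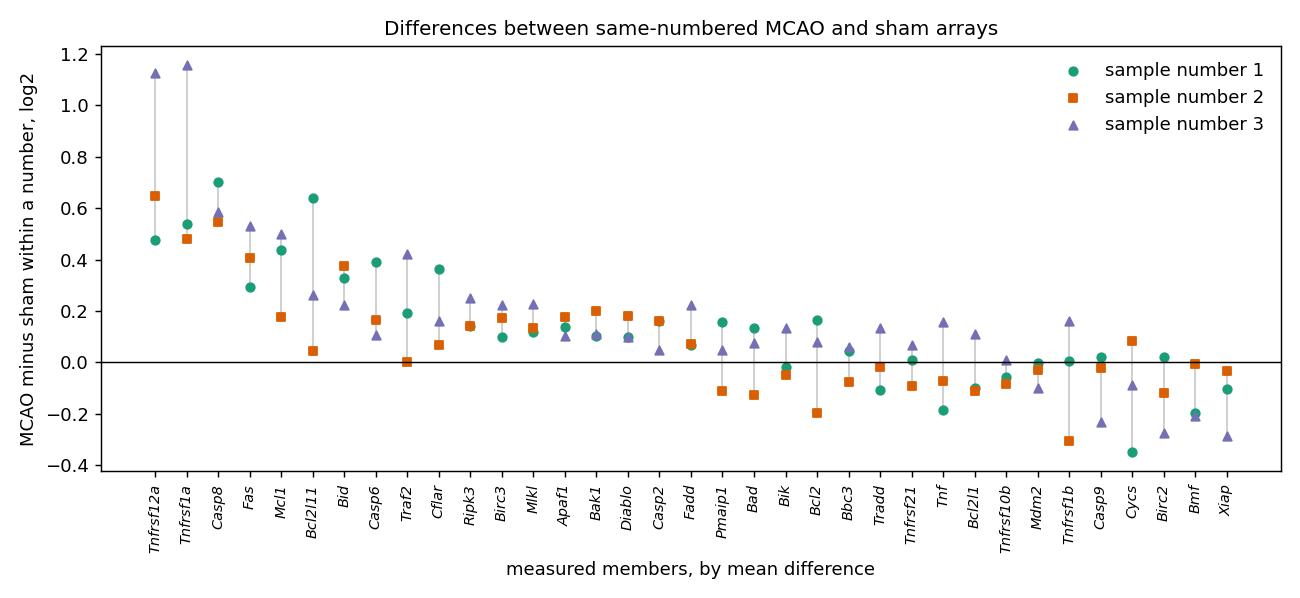
MCAO minus sham within same-numbered samples on the log2 scale, for the 35 measured members ordered by mean difference; each symbol is 1 pair and grey lines span the 3 pairs. The 3 pairs of Casp8 lie between 0.55 and 0.70, while those of Tnfrsf12a and Tnfrsf1a are highest in pair 3, at 1.13 and 1.16.

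The calls with the block were repeated without both arrays of 1 number at a time, an alternative added after the data were seen. Few arrays remain in such fits, so their error leans largely on the variance shared over all genes. Without the arrays numbered 2, 1162 genes rose, against 877 with all arrays. The pairing is also the one chosen from these same values, so passing in these fits is not separate evidence. Casp8, Tnfrsf12a and Tnfrsf1a passed in all 3 such fits by limma, with adjusted p-values up to 0.00253, 0.00505 and 0.00706. Fas did not pass without the arrays numbered 3 (adjusted p = 0.0576). Mcl1 did not pass without those numbered 1 (0.0937) or 3 (0.129), and Bid without those numbered 1 (0.164) or 3 (0.0507). Without the arrays numbered 2, Bcl2l11 at 0.45 log2 and Traf2 at 0.31 passed as well (adjusted p = 0.00826 and 0.0383).

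Other genes of the same pathways were set beside the members. Of 9 measured genes of inflammatory caspases and lytic death, 2 rose and 7 did not pass without the block, and 3 rose with it, with a median difference of 0.24 log2. Pycard, the inflammasome adaptor ASC, read 8.53, 8.87 and 8.79 in MCAO, against 7.04, 7.37 and 7.22 in sham. It rose 2.87-fold, which is 1.52 ± 0.12 log2 (SE, 3 arrays each; adjusted p = 0.00304 by limma). Casp1, the inflammasome caspase, rose by 0.62 ± 0.11 (adjusted p = 0.0498). Casp1 lost its call in values as deposited (0.0697), with only array medians aligned (0.0707), with robust variance (0.0511), without both arrays numbered 1 (0.0532) and without MCAO 2 (0.0574), MCAO 3 (0.135), sham 1 (0.126), sham 2 (0.165) or sham 3 (0.223). Gsdmd, whose cleaved product forms pores, differed by 0.28 ± 0.07 and passed with the block (adjusted p = 0.0404).

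Of 8 measured genes of the execution phase, Birc5 rose and 7 did not pass, at a median of 0.0065 log2. Birc5 encodes survivin, an IAP-family protein that also acts in mitosis. It read 7.88, 7.90 and 7.39 in MCAO, against 6.82, 6.86 and 6.57 in sham, a rise of 0.97 ± 0.15 log2 (SE, n = 3 per group; 1.96-fold; adjusted p = 0.0303 by limma). Birc5 lost its call in values as deposited (0.0532), with only array medians aligned (0.0539) and without MCAO 1 (0.0521), MCAO 2 (0.102), sham 1 (0.0654), sham 2 (0.0805) or sham 3 (0.164). The proliferation marker Mki67 also rose, by 0.83 ± 0.11 (adjusted p = 0.0134), and did not pass without MCAO 2, MCAO 3 or sham 3 (0.0532, 0.0517 and 0.0768).

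Of 20 p53 target genes 0 passed by limma with or without the block, and 0 had an unadjusted p under 0.05 without it. Their median difference was −0.05 log2. Without the block the stress gene Gadd45a had the smallest p, at 0.22 ± 0.10 (SE, 3 arrays each, adjusted p = 0.613 by limma). The redox regulator Sesn2 was next, at −0.16 ± 0.08 (adjusted p = 0.705). Cdkn1a had the largest difference, 0.27 ± 0.15, and was higher in MCAO in all 3 pairs. Its adjusted p by limma was 0.734 without the block and 0.0822 with it. Of the list 8 genes were higher in MCAO and 12 lower. Of 7 other BCL2 family genes 0 passed without the block, and Bnip3, a hypoxia-induced mitophagy receptor, fell with it. Bnip3 read 10.22, 10.32 and 10.26 in MCAO, against 10.49, 10.61 and 10.48 in sham, with no overlap (−0.26 ± 0.07; adjusted p = 0.248 by limma, and 0.0484 with the block). With the block, 0 genes of this list fell in values as deposited, and 0 fell in each fit without both arrays of 1 number, so Bnip3 lost its call there. Bcl2l2, which encodes the protective BCL-W, differed by −0.13 and did not pass.

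Of 13 measured TNF superfamily ligands 0 passed by limma with or without the block, and 0 had an unadjusted p under 0.05. These ligands were dim: 0 of the 13 lay above the median gene in sham, and their list means on the sham arrays were 6.18 to 6.21 log2. Tnfsf9 and Tnfsf14 had the smallest p, at 0.13 and −0.09 log2, and Tnfsf12, the gene of TWEAK, was not matched. Of 20 other TNF receptor genes 0 passed with or without the block, and 1 had an unadjusted p under 0.05 without it. That was Ltbr, the lymphotoxin beta receptor, at 0.35 ± 0.15 (SE, 3 arrays each, adjusted p = 0.558 by limma, and 0.0945 with the block). The next smallest p was that of Tnfrsf13b, at 0.23. Of these 20 receptor genes 2 lay above the median gene in sham. Whether the dimmer ligand and receptor genes were detected was not tested. Of 20 measured genes that carry TNF receptor signals to NF-kappaB 0 passed, with or without the block, and 0 had an unadjusted p under 0.05 without it. The deubiquitinase Cyld differed by −0.22 and the NF-kappaB subunit Relb by 0.16. Nfkbia had the largest difference of this list, 0.27 ± 0.21 log2 (SE, 3 arrays each). Its adjusted p by limma was 0.877 without the block and 0.0828 with it. Of the list 12 genes were higher in MCAO and 8 lower.

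Markers of microglia and macrophages and of reactive astrocytes rose in the same samples. Of 10 markers of activated microglia and macrophages 8 rose, with list means of 8.88 to 9.31 on the MCAO arrays and 7.92 to 7.99 on the sham arrays; the count was 4 without MCAO 3, 5 without sham 2 and 4 without sham 3. Fcgr1, Cd14 and C1qa rose by 1.35, 0.95 and 1.39 log2. Of 9 markers of reactive astrocytes 8 rose, with list means of 9.46 to 9.87 on the MCAO arrays and 7.52 to 7.89 on the sham arrays, and 5 rose without sham 3. Of 5 measured oligodendrocyte markers 0 passed by limma with or without the block (0 at an unadjusted p under 0.05 without it), at a median difference of −0.11. Of 9 measured neuron markers 0 passed without the block and 2 fell with it, Drd1 by 0.34 and Nefl by 0.31 log2. All 9 read lower in MCAO. Of these, 4 had an unadjusted p under 0.05 by limma without the block, against 2.46% of all genes lower at that level. None of 6 neutrophil markers passed by limma with or without the block (2 at an unadjusted p under 0.05 without it). None of 6 lymphocyte markers did (0 unadjusted without the block). List means of neutrophil markers were 6.22 to 6.37 on the MCAO arrays and 6.07 to 6.31 on the sham arrays. In bulk tissue more cells of a type and more RNA per cell cannot be told apart, and the part of these cell types in the members' differences was not tested.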

How the data were processed

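Expression was measured on 6 arrays of SVZ total RNA. The deposited log2 values, 1 for each of 45101 probe sets, were made by the authors by steps not given in the sources used here. Array medians were 6.57 to 6.59, while 90th percentiles spread over 8.85 to 9.06, and arrays were therefore quantile-normalised before the fits. The array's annotation gave 1 symbol to 34958 probe sets, several to 932 and none to 9211. The probe set with the highest mean stood for a gene, and 4 of the 35 measured members rest on probe sets ending in _s_at or _x_at, which may bind related transcripts.

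The contrast of MCAO with sham was fitted in R 4.3.3 with lmFit and eBayes of limma 3.58.1, 2-sided, with Benjamini-Hochberg adjustment over 18194 genes at 0.05. The labels state no pairing. Deviations of same-numbered samples correlated at 0.77, 0.44 and 0.48, each over 0.1, and the numbers were taken as a pairing on these same values. Deviations cancel within a group, so these correlations are not separate evidence. Samples of different number correlated at −0.59 to 0.29, with MCAO 3 and sham 2 at 0.29, also over 0.1. Each sample correlated best with its own number. No set test was run, and no permutation test of 3 against 3 can go below p = 0.1. Tested on simulated data of 18194 genes, the fit without the block recovered 91 of 100 changes of 1 log2 and 100 of 100 of 2 log2, with 14 false calls. The simulated noise was independent between arrays, with no effect of sample number. The largest member difference was 0.75 log2, so the simulation covers neither changes of the members' size nor the calls with the block. Members, lists and the rule for named genes (all members, and of each other list the genes past the threshold or else those with the smallest p) were chosen with earlier results of these data known. Dcx and Dlx1 were named outside that rule, as were Cdkn1a and Nfkbia, which had the largest differences of their lists. Promoters were read from RefSeq's table with Python 3.11.15.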

Additional observations from a re-analysis of the deposited data

How the results depend on the processing

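With the sample number as a block (a pairing), 6 members rose, 877 genes rose and 236 fell, against 0 members, 203 and 3 genes without the block. The same block gave 5 members, 765 and 51 genes in values as deposited, and 5 members, 686 and 159 genes with the mean of probe sets. Without both arrays of 1 number it gave 4, 8 and 3 members for numbers 1, 2 and 3, with 561, 1162 and 590 genes rising and 127, 550 and 58 falling; these fits and that with the mean of probe sets were chosen after seeing the data. Without the block, 1 member passed in values as deposited and 1 after only the array medians were aligned, where 0 genes fell in either case, and 2 members passed without both arrays numbered 1, where 26 genes fell. Falls numbered 1 with dim genes left out and 1 with robust variance. Leaving out 1 array at a time, 0 to 1 members passed, 44 to 188 genes rose and 0 to 21 fell. The rising count was lowest without sham 3, and it was 98 without MCAO 3, 123 without sham 1 and 131 without sham 2; the falling count was highest without MCAO 1. No member fell under any of these settings. The sign of the difference was the same in all settings for 20 members and changed in at least 1 for 15. Of 680 member differences under alternatives 56 changed sign, and none of these was past the threshold there or in the main fit. Bcl2l11 is among the 15 and passed, with its main sign, with the block without the arrays numbered 2. Of 52 probe sets of members that were not used, 17 read opposite in sign to the one used, 1 of them, for Bcl2, at an unadjusted p under 0.05. The files give no detection call, and 16 of the 35 members lay above the median gene on the sham arrays. Of the 6 members that rose with the block, Casp8, Fas and Bid lay below it. Pmaip1, Mlkl, Tnfrsf10b and Ripk3 lay at percentiles 3.53, 11.41, 11.59 and 16.27 of all genes in sham. The fit with dim genes left out tested 15 members.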

Other observations

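Both arrays numbered 1 were the highest of their group for 10 of the 35 members, among them Bcl2, Bcl2l11, Mcl1, Casp8 and Cflar, and for 18.6% of all genes. Both were the lowest of their group for 9 members, among them Bid, Tnfrsf1a, Tnfrsf1b, Fadd and Traf2, and for 26.3% of all genes.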
